A study of Meleagris gallopavo with 18 samples.

Results

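The testis and the epididymis of 6 turkeys (*Meleagris gallopavo*) were compared across all genes, to describe what changes, and what does not, where spermatozoa leave the testis. The comparison used the 6 testis and the 6 epididymis libraries, 12 of the 18 libraries of the series, which also sampled the ductus deferens. All 56037 loci of the deposited count table were taken, and 28489 of them had enough counts to be tested. The birds were males of 38 weeks, numbered 2, 11, 12, 14, 15 and 16, photostimulated from the age of 26 weeks, with light for 14 h and dark for 10 h a day. The 2 groups differed in tissue only, no group was treated, and each bird gave 1 library per tissue. Each library held polyadenylated RNA of a whole tissue, so fewer cells of a type and less RNA per cell could not be told apart.

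Spermatogenesis takes place in the seminiferous tubules of the testis, where germ cells pass through meiosis and the resulting spermatids build a flagellum around an axoneme, a cylinder of microtubules moved by dynein motors. Spermatozoa then enter the epididymis, which in birds is a short set of ducts lined by ciliated and non-ciliated epithelial cells that take up most of the fluid released by the testis. Axoneme proteins therefore serve the sperm flagellum in one tissue and the motile cilia of the duct lining in the other, whereas meiotic genes belong to the testis.

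Most loci of the count table are assembled transcripts named MSTRG with a number. A gene symbol could be given to 83 loci, through the transcript identifiers in the supplementary tables of the study. Of these, 29 came from its lists for epididymis against testis, which were chosen on the same libraries, so their direction is not independent evidence. The other 54 came from its lists for comparisons with the ductus deferens, 51 of them for epididymis against ductus deferens. Those lists were chosen on the same epididymis or testis libraries, so the direction of these loci is not independent evidence either. For 68 of the 83 loci, the counts of the listed transcripts equalled the locus counts left over by its assembled transcripts in all 18 libraries, and for 82 they fitted within the locus. RFX2 was the exception, so its name is uncertain. ARMC4 is among the 82 only because its 1 listed transcript was absent from the deposited counts, so its link could not be tested. Where the listed transcripts held no counts in testis and epididymis, the libraries of these tissues could not test the link. IQUB, KL, DNAAF5, DRC3, SPTBN1, RSPH3, TEKT3, ARHGEF16, FGFR1, PCSK4 and LGMN were such loci. Reads of overlapping loci or of close relatives of a gene could be split by the counting, whose use of the strand is not given in the sources used here.

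Levels are given as CPM, counts scaled to a common library size with the trimmed mean of M values (TMM), without correction for length, and are compared between tissues within a locus only. Testis libraries held 81438457 to 100159106 counts and epididymis libraries 64456026 to 118625345, so that 3 counts, taken as the detection limit, correspond to 0.0231 to 0.0755 CPM. On the first principal component (58.3% of the variance of log2 CPM) the 6 testes lay between -278 and -246 and the 6 epididymides between 181 and 384. The summed level of 4 of the 9 listed germ cell markers that had a symbol was 477 to 674 CPM in testes and 13.0 to 24.2 CPM in epididymides, where SLC26A8 and KIF18A were at 0 in bird 12. For ciliated cells (CCNO and DNAH5, 2 of 6 markers) it was 0.837 to 2.98 CPM in testes and 122 to 535 CPM in epididymides, and for epithelium (3 of 9 markers) 16.7 to 37.0 and 166 to 393 CPM. No symbol was available for the listed Sertoli, Leydig, smooth muscle, blood or immune markers, so the part of those cells in the results was not tested.

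The epididymis library of bird 12 stood apart. It lay at 444 on the second component (19.2%), against -127 to -105 for the other 5 epididymides, and its median correlation with them was 0.771, against 0.927 to 0.935. Among the 14782 loci with at least 1 CPM in each of the other 5, this library was the lowest for 61.3% and had at most 3 counts for 2305. The other epididymides were the lowest for 5.19% to 21.2% under the same rule, with at most 3 counts for 13 to 20 loci. A single locus, MSTRG.50983, held 30.9% of its counts, against 4.66% to 6.15% in the other 5. Results are therefore also given without this library. Among the testes, bird 11 was the lowest or the highest for 39.7% and 36.0% of loci under the same rule, and its median correlation of 0.836 was the lowest of the 6 (0.871 to 0.893 in the others).

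More loci had counts in the testis than in the epididymis. Testes held 36879, 40223.5 (median) and 43510 loci with 1 or more counts at the lowest, middle and highest, and epididymides held 17596, 29117 and 34711. The groups did not overlap, and the means of 40405 ± 2595 and 28438 ± 5961 (SD, n = 6 each) gave an epididymis minus testis difference of -11967 loci (p = 0.00216, two-sided exact permutation test, the smallest p it can give, with and without bird 12's epididymis). The 100 most counted loci held 30.8% ± 6.24 of the counts in testes and 39.6% ± 10.8 in epididymides (exact permutation p = 0.0779, n = 6 each), and the largest share, 60.5%, was that of bird 12's epididymis.

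**Figure D1:**
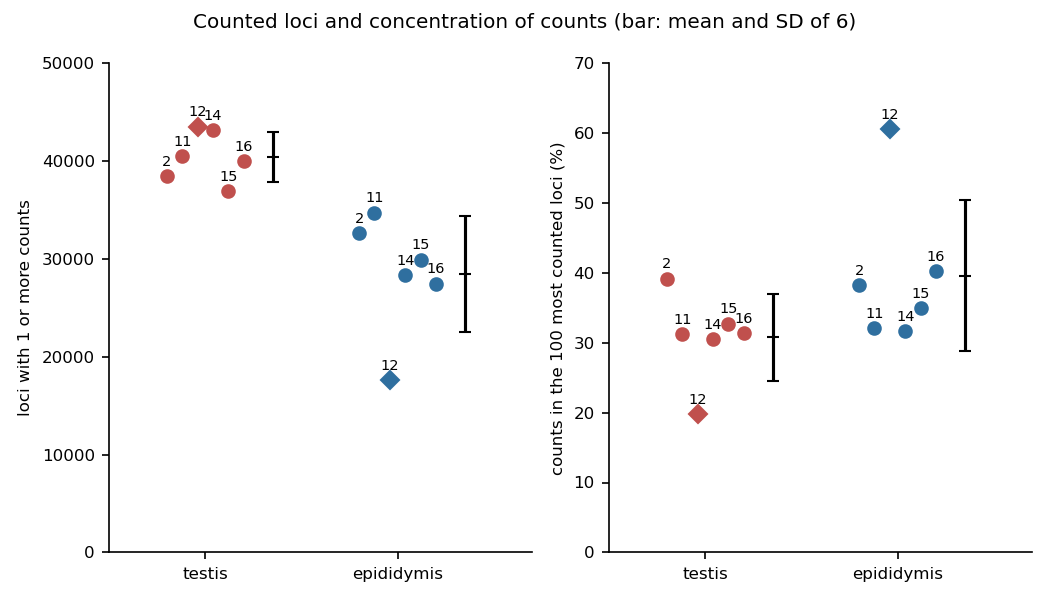
Number of loci with 1 or more counts (left) and percent of counts in the 100 most counted loci (right) in each testis and epididymis library, labelled by bird; diamonds mark bird 12 and black bars the mean and SD of 6. All testes held more counted loci than any epididymis, and the epididymis of bird 12 held the fewest (17596) and the largest share (60.5%).

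In the edgeR quasi-likelihood test, a locus was called where the log2 fold change was beyond -1 or 1 and the Benjamini-Hochberg adjusted p below 0.01. Of the 28489 loci, 10237 (35.9%) were called, 6551 (23.0%) lower in the epididymis and 3686 (12.9%) higher. Another 1001 loci (3.51%) were held within 2-fold, which means that the 95% interval of the log2 fold change lay wholly between -1 and 1. The remaining 17251 (60.6%) were undecided. With the bird as a block, 6262 loci (22.0%) were called, 3998 lower (14.0%) and 2264 higher (7.95%), and 620 (2.18%) were held. The median log2 fold change of all loci, epididymis minus testis, was -0.30, and it was -0.56 when only library size was scaled for, so changes near 0 depend on the scaling.

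Loci that fell did so further than those that rose. The fitted median was -5.34 on the log2 scale for the loci that fell and 2.70 for those that rose. Of the 6551 that fell, 1361 had at most 3 counts in every epididymis, and 995 had none. Of the 3686 that rose, 80 had at most 3 counts in every testis. Both numbers cover only loci that passed the filter on low counts. The filter passed 28489 loci with the epididymis of bird 12 and 31567 without it. Loci at this limit were not counted without that library. The part of the filter and of that library in the contrast of 1361 with 80 was thus not tested. With such loci set to the lower bound that 3 counts per library allow, the medians were -4.33 and 2.70. The loci that fell were mostly little counted, and those at the detection limit in the epididymis had a median testis level of 0.902 CPM. Together, the loci that fell held 29.4% ± 3.93 of the counts in testes and 3.60% ± 0.871 in epididymides, and those that rose held 6.86% ± 1.004 and 38.2% ± 6.67 (SD, n = 6 each), shares that follow from the calls and carry no test.

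**Figure D2:**
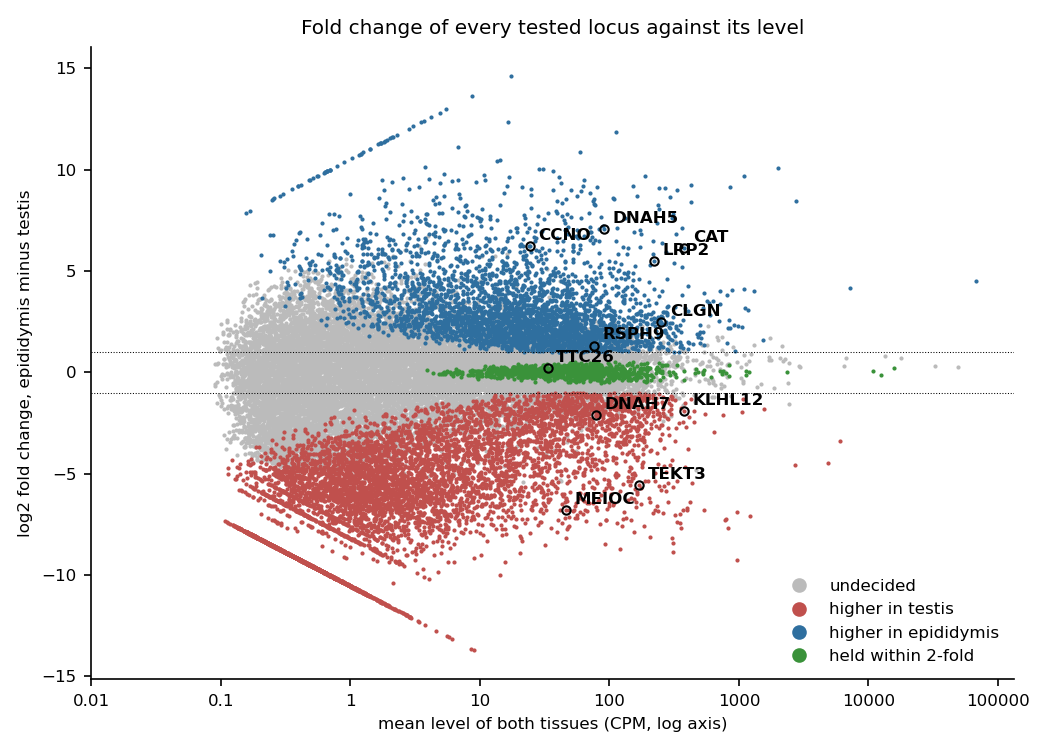
Log2 fold change, epididymis minus testis, against the mean level of both tissues (CPM, log axis) for the 28489 tested loci, coloured by the outcome of the test, with 11 named loci circled and dotted lines at 2-fold. Loci that fell spread to -13.71, many of them on straight lines where the epididymis had 0 counts, and loci held within 2-fold lay mostly above 10 CPM.

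The direction changed with the level. Below a mean of 1 CPM, 25.2% of 8496 loci fell and 1.74% rose, whereas between 10 and 100 CPM 15.4% of 9127 loci fell and 22.9% rose. From 100 to 1000 CPM 24.0% of the 1597 loci fell and 24.9% rose. Held loci were counted only above 1 CPM and made up 11.7% of loci from 100 to 1000 CPM. Above 1000 CPM, 7 of 56 loci fell, 11 rose and 7 were held (12.5%).

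**Figure D3:**
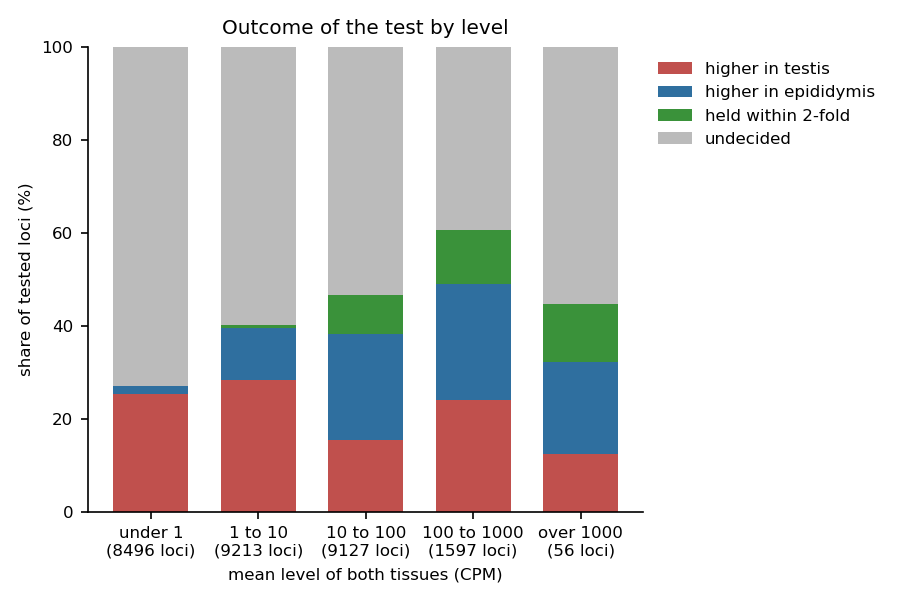
Percent of tested loci lower in the epididymis, higher in it, held within 2-fold or undecided (stacked bars), by the mean level of both tissues in CPM, with the number of loci under each bar. Loci that fell dominate the calls below 10 CPM (25.2% and 28.4% of loci), and loci that rose are the more frequent from 10 to 100 CPM (22.9%).

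The most counted locus among those higher in the epididymis was MSTRG.50983, which no table pairs with a gene. Its level was 118, 5211 (median) and 14450 CPM at the lowest, middle and highest testis and 53060, 55150 and 501000 CPM in epididymides. The groups did not overlap, with bird 12 far above the other 5 epididymides (at most 62170 CPM). That all 6 birds were higher in the epididymis was a condition for naming the locus. The log2 fold change was 4.53 ± 0.96 (SE, edgeR adjusted p = 0.00138), and 3.30 without that library. The locus was not called (adjusted p = 0.0138) when bird 12 was left out and birds were blocked. Next came MSTRG.28623 (log2 fold change 4.16), MSTRG.20395 (8.46), MSTRG.24560 (10.08) and MSTRG.12864 (4.03). MSTRG.24560 went from 0.165 to 7.50 CPM in testes to 1027 to 10090 CPM in epididymides, and its log2 fold change was 9.49 without bird 12's epididymis.

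Among loci lower in the epididymis, the most counted was MSTRG.18921, with 9631 to 12170 CPM in testes and 934 to 1219 CPM in epididymides and little spread between birds (log2 fold change -3.40 ± 0.24). MSTRG.24337, MSTRG.39609, MSTRG.25391 and MSTRG.16678 followed, with log2 fold changes of -4.45, -4.55, -7.09 and -6.90. The testis of bird 11 was the highest for the last 4. MSTRG.34599, MSTRG.40374 and MSTRG.39048 had the largest fold changes among loci above 10 CPM. They had no counts in any epididymis, against mean testis levels of 18.2, 17.2 and 12.2 CPM, which makes them at least 241-fold, 228-fold and 161-fold lower there. The testis of bird 11 was the highest for all 3, and without it the bounds of MSTRG.40374 and MSTRG.39048 were 137-fold and 78.8-fold. MSTRG.40374 had 3754, 2262 and 2710 counts in the testes of birds 11, 14 and 15, but only 34, 95 and 131 in those of birds 2, 12 and 16. Its mean and its bound thus rested on the testes of birds 11, 14 and 15. In the other direction, MSTRG.13365, MSTRG.32782 and MSTRG.20735 had no counts in any testis and were at least 839-fold, 421-fold and 265-fold higher in the epididymis. The level of MSTRG.13365 rested on bird 12 (118 CPM, against 6.25 to 46.7 in the others, and at least 432-fold without that library) and that of MSTRG.32782 on the other 5 birds (16.6 to 29.5 CPM, against 0.579 in bird 12).

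The most counted loci held within 2-fold were MSTRG.51387, MSTRG.51388, MSTRG.51382, MSTRG.33089 and MSTRG.22947. MSTRG.51387 had 5503 to 21210 CPM in testes and 10130 to 24810 CPM in epididymides, and its log2 fold change of 0.23 had an interval from -0.54 to 0.9994. Without bird 12's epididymis, MSTRG.51387 and MSTRG.22947 were undecided and the other 3 remained held.

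Of the 83 loci with a symbol, 24 fell, 46 rose, 1 was held and 12 were undecided. Their median log2 fold change was 1.87, against -0.30 over all loci. Among the 54 loci that were not listed for epididymis against testis, 13 fell, 29 rose, 1 was held and 11 were undecided. These too were chosen on libraries used here, so their counts are no independent support. The groups did not overlap for 63 of the 83 loci, whereas over all tested loci 11.7% lay wholly higher and 25.5% wholly lower in the epididymis. Without bird 12's epididymis, 3 of the 83 changed their outcome, all among the 13 that had not been called, and with the bird as a block 7 calls were lost. When a locus was counted on its annotated transcripts only, FGB (-2.78, adjusted p = 0.0753), CORO1C (-0.71, adjusted p = 0.403) and SLC15A1 (-1.52, adjusted p = 0.420) changed direction and were not called. RFX2, undecided otherwise, was called as a fall (-3.73, adjusted p = 2.11e-06). Rises of many other loci also rest mostly on assembled transcripts. In epididymides, annotated transcripts held 0.198% of the counts of CAT, 0.00399% for AQP4, 2.56% for NDRG1 and 0% for KL, against 100% for ARPC5.

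**Figure D4:**
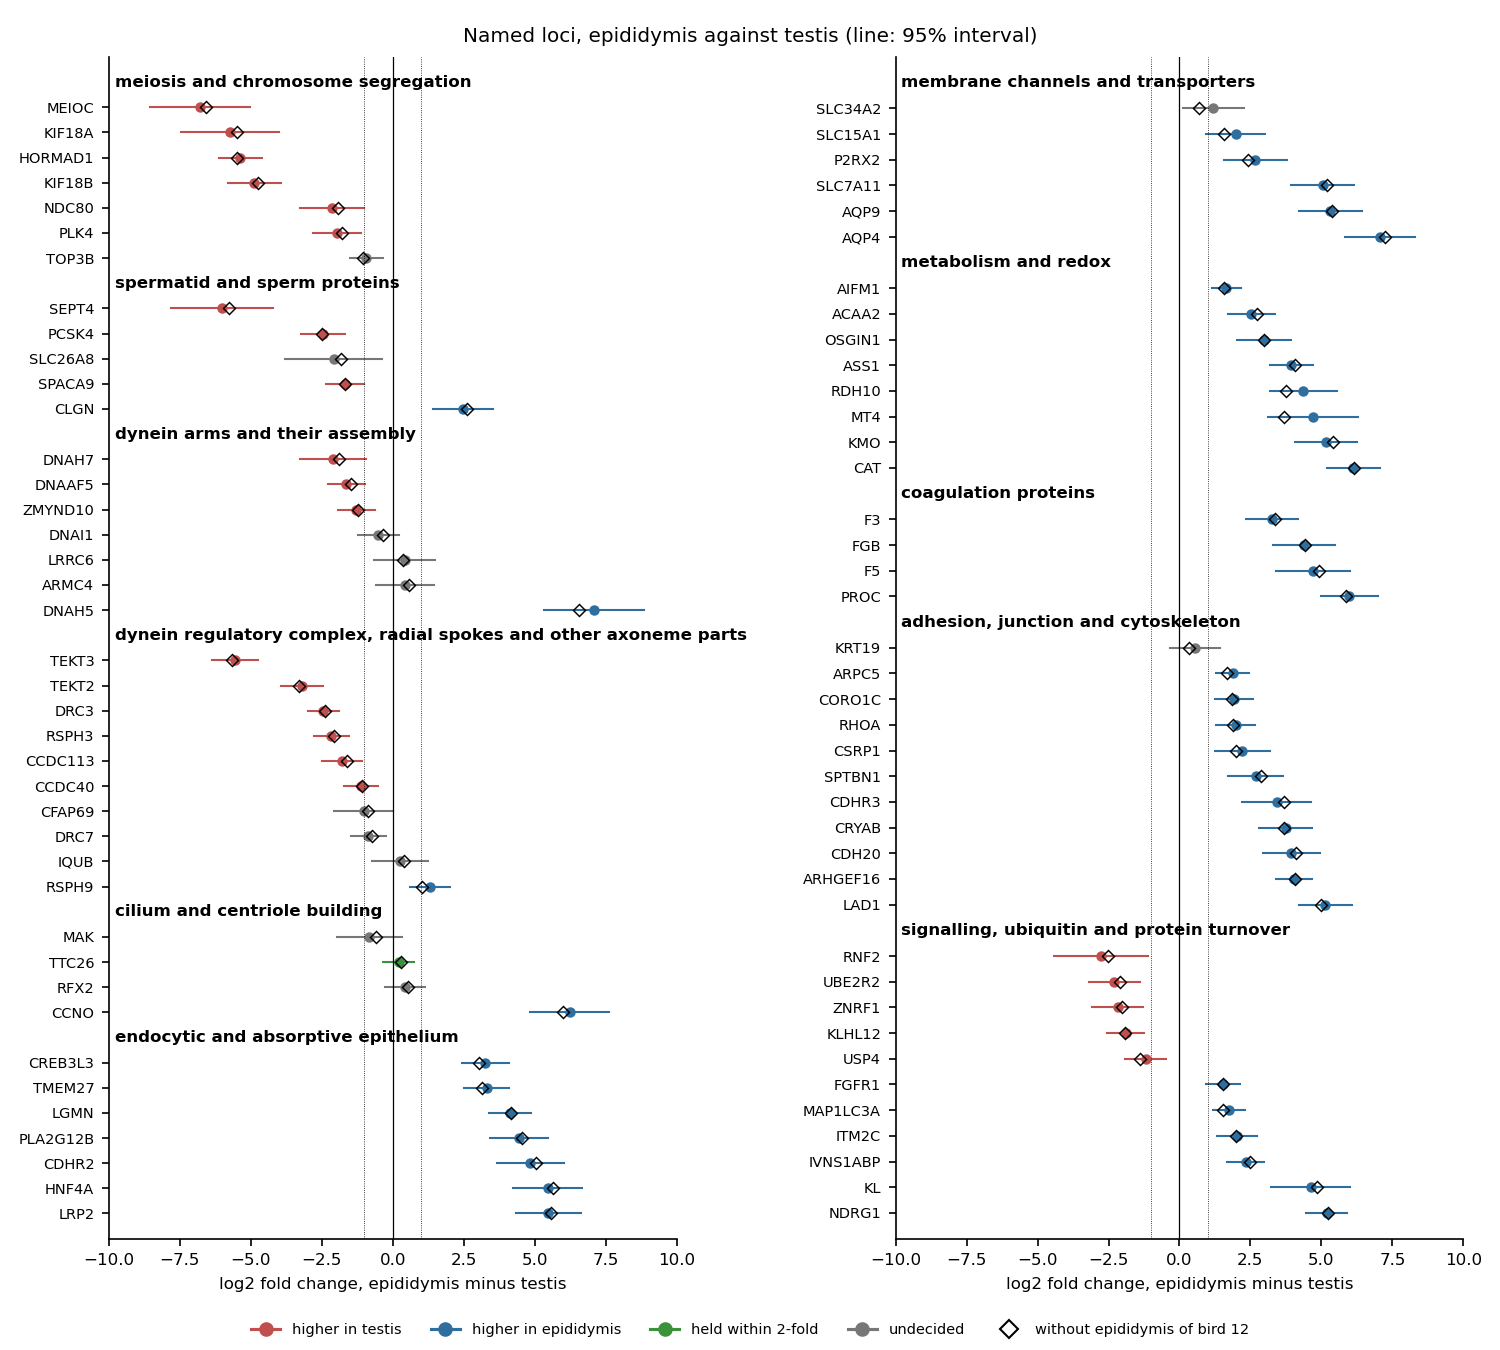
Log2 fold change, epididymis minus testis, with its 95% interval (lines) for 80 loci with a symbol, grouped by function and coloured by outcome; open diamonds give the value without the epididymis of bird 12, and PLK4, which belongs to 2 groups, is drawn once. Meiotic genes lie to the left, absorptive, metabolic and coagulation genes to the right, and the axoneme and cilium genes on both sides.

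Genes of meiosis and chromosome segregation fell. Of 24 genes listed, 7 had a symbol, and 6 of these fell and 1 was undecided, with a median log2 fold change of -4.87. Of all tested loci 23.0% fell, and of the 83 with a symbol 24. Of the 7, 6 could be tested on annotated transcripts only, and 4 of them fell. MEIOC, which keeps germ cells in meiotic prophase in the mouse, had 35.2, 97.9 (median) and 139 CPM at the lowest, middle and highest testis and 0.0480, 0.759 and 1.63 CPM in epididymides. Every testis was far above every epididymis, and the log2 fold change was -6.79 ± 0.82 (adjusted p = 2.26e-05). HORMAD1, a protein of the meiotic chromosome axis, fell from 296, 337 and 594 CPM to 5.37, 8.80 and 14.0 CPM, again without overlap. Its log2 fold change was -5.37 ± 0.36 (adjusted p = 2.62e-07).

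The testis levels of the mitotic and meiotic spindle genes of this group varied between birds. KIF18A, a kinesin that dampens chromosome movements, had 7.62, 38.5 and 52.2 CPM in testes, with bird 11 the lowest, and 0 to 1.08 CPM in epididymides (log2 fold change -5.73 ± 0.81). KIF18B, a related kinesin at the ends of microtubules, fell by 4.87 on the log2 scale, and here bird 11 had the highest testis (523 CPM). NDC80, a kinetochore protein, had 8.57, 38.6 and 81.8 CPM in testes and 1.58, 11.1 and 12.1 CPM in epididymides. Its groups overlapped because the testis of bird 11 was below 5 epididymides, and the fall of 2.14 on the log2 scale (adjusted p = 0.00369) was not called (adjusted p = 0.0460) with the bird as a block. PLK4, the kinase that starts centriole duplication, fell by 1.97. TOP3B, a topoisomerase, had a log2 fold change of -0.93 (adjusted p = 0.0101) and was called without bird 12's epididymis (-1.03, adjusted p = 0.00303).

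Of the 20 listed spermatid and sperm genes, 5 had a symbol, with 3 falling, 1 undecided and 1 rising (23.0% of all tested loci fell and 12.9% rose). Of the 83 with a symbol 24 fell and 46 rose. With annotated transcripts only, 4 of the 5 could be tested, of which 2 fell and none rose. SEPT4, a septin of the sperm annulus in mammals, had 49.3, 130 and 222 CPM in testes and 0, 1.88 and 4.25 CPM in epididymides. No bird came near overlap, and the log2 fold change was -6.01 ± 0.84 (adjusted p = 7.10e-05). PCSK4, a protease of germ cells, and SPACA9, a sperm protein, fell by 2.46 and 1.69. SLC26A8, an anion transporter of the sperm annulus, had 20.9, 26.2 and 59.7 CPM in testes and 0, 7.17 and 14.4 CPM in epididymides. The groups did not overlap, but with bird 12's epididymis at 0 the adjusted p was 0.0429, and without that library it was 0.000770 (log2 fold change -1.84).

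CLGN went the other way. It encodes calmegin, a chaperone of the endoplasmic reticulum that male germ cells need for sperm surface proteins in the mouse. Its level was 12.3 CPM in the testis of bird 11, 56.6 to 81.3 in birds 2, 14, 15 and 16 and 180 in bird 12, and 424 to 533 CPM in 5 epididymides and 167 in that of bird 12. In 5 of 6 birds it was higher in the epididymis, and bird 12 was the exception. The log2 fold change was 2.47 ± 0.50 (adjusted p = 9.06e-04) and 2.62 without that library. On annotated transcripts alone the rise was not called.

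Axoneme genes moved in both directions. Of 24 listed genes for the dynein regulatory complex, the radial spokes and other axoneme parts, 10 had a symbol: 6 fell, 1 rose and 3 were undecided, with a median of -1.46. Over all tested loci 23.0% fell and 12.9% rose, and of the 83 with a symbol 24 fell and 46 rose. On annotated transcripts alone, 4 of the 10 could be tested, of which 3 fell and none rose. The tektins, filaments inside the microtubules, had the largest falls of the 10. TEKT3 had 235, 286 and 636 CPM in testes and 3.89, 7.75 and 9.16 CPM in epididymides, and its log2 fold change was -5.55 ± 0.38 (adjusted p = 3.21e-07). TEKT2 went from 163, 217 and 569 CPM to 22.0, 29.1 and 37.4 CPM (-3.19 ± 0.35). For both, bird 11 had by far the highest testis and bird 12 the highest epididymis, and the groups did not overlap.

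DRC3, of the dynein regulatory complex, had 108 to 143 CPM in testes and 14.2 to 31.2 CPM in epididymides (-2.46 ± 0.26), and RSPH3, of the radial spokes, 149 to 320 and 29.2 to 58.2 CPM (-2.17 ± 0.29). CCDC113 and CCDC40, which help to anchor the axoneme's inner parts, fell by 1.80 and 1.13, and the second was not called (adjusted p = 0.0283) with the bird as a block. RSPH9, another radial spoke protein, had 27.4, 41.3 and 70.4 CPM in testes and 70.7, 87.2 and 205 CPM in epididymides. It was higher in the epididymis in every bird, and the rise of 1.32 on the log2 scale (adjusted p = 0.00423) was the only one in the group. This call was lost with library size as the scaling (0.90, adjusted p = 0.0327). DRC7, CFAP69 and IQUB were not called, with log2 fold changes of -0.86, -1.03 and 0.26 and intervals from -1.49 to -0.24, -2.07 to 0.02 and -0.72 to 1.23. CFAP69 was called without the testis of bird 11 (-1.39, adjusted p = 0.00970), as was DRC7 (-1.04, adjusted p = 0.00416), and IQUB changed sign there (-0.08) and with library size as the scaling.

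The dynein group of 27 listed genes had 7 with a symbol: 3 fell, 1 rose and 3 were undecided, with log2 fold changes from -2.11 to 7.09. Over all tested loci 23.0% fell and 12.9% rose, and of the 83 with a symbol 24 fell and 46 rose. Counted on annotated transcripts only, 4 of the 7 could be tested, of which 1 rose and none fell. DNAH5, a heavy chain of the outer dynein arm of motile cilia, was nearly silent in the testis at 0.0688, 1.35 and 2.93 CPM, against 94.1, 127 and 454 CPM in epididymides. Every epididymis was far above every testis, bird 12 was the highest, and the log2 fold change of 7.09 ± 0.83 (adjusted p = 1.81e-05) was the largest of the 83 loci; it was 6.57 without that library. DNAH7, an inner arm heavy chain, moved in the opposite direction, from 24.9, 148 and 195 CPM to 3.90, 35.8 and 42.9 CPM. Its fall of 2.11 on the log2 scale was seen in 5 of 6 birds, bird 11 having less in the testis (24.9 CPM) than in the epididymis (38.3 CPM), and was lost (adjusted p = 0.0365) with the bird as a block.

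Of the assembly factors of dynein arms, DNAAF5 fell by 1.63 and ZMYND10 by 1.29, the second with an adjusted p of 0.0111 with the bird as a block and a log2 fold change of -0.98 without the testis of bird 11 and the epididymis of bird 12, neither of which was called. DNAI1, an outer arm intermediate chain, had 34.6, 42.7 and 86.5 CPM in testes and 14.7, 36.3 and 50.8 CPM in epididymides. Its groups overlapped widely, the interval ran from -1.23 to 0.21, and without bird 12's epididymis it was held within 2-fold. LRRC6, an assembly factor, and ARMC4, a docking factor of the outer arm, had log2 fold changes of 0.42 and 0.43 with intervals from -0.65 to 1.49 and -0.59 to 1.45. In both the testis of bird 11 (9.07 and 8.93 CPM) was well below and that of bird 12 (196 and 140 CPM) above all other testes.

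For cilium and centriole building, 5 of 20 listed genes had a symbol: 1 fell, 1 rose, 1 was held and 2 were undecided. Over all tested loci 23.0% fell, 12.9% rose and 3.51% were held. Of the 5, 3 could be tested on annotated transcripts only, and 1 fell and 1 rose. CCNO, a cyclin that multiciliated cells need to multiply their centrioles, had 0.0555, 0.623 and 1.20 CPM in testes and 27.6, 43.3 and 80.5 CPM in epididymides. All epididymides were above all testes, and the log2 fold change was 6.23 ± 0.65 (adjusted p = 7.43e-06). TTC26, a subunit of the intraflagellar transport complex, was the only one of the 83 loci held within 2-fold. Its levels of 25.3, 32.3 and 35.2 CPM in testes and 23.5, 37.5 and 45.4 CPM in epididymides gave a log2 fold change of 0.21 with an interval from -0.34 to 0.75, and it was held also without bird 12's epididymis and with the bird as a block, although the sign was negative with library size as the scaling (-0.04). MAK, a kinase of cilia and male germ cells, and RFX2, a transcription factor of ciliary genes, were undecided (-0.82 and 0.43).

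Across these 3 axoneme and cilium lists, 22 loci had a symbol: 10 fell, 3 rose, 1 was held and 8 were undecided. By comparison 23.0% of all tested loci fell and 12.9% rose, and of the 83 with a symbol 24 fell and 46 rose. The 3 that rose were DNAH5, CCNO and RSPH9.

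**Figure D5:**
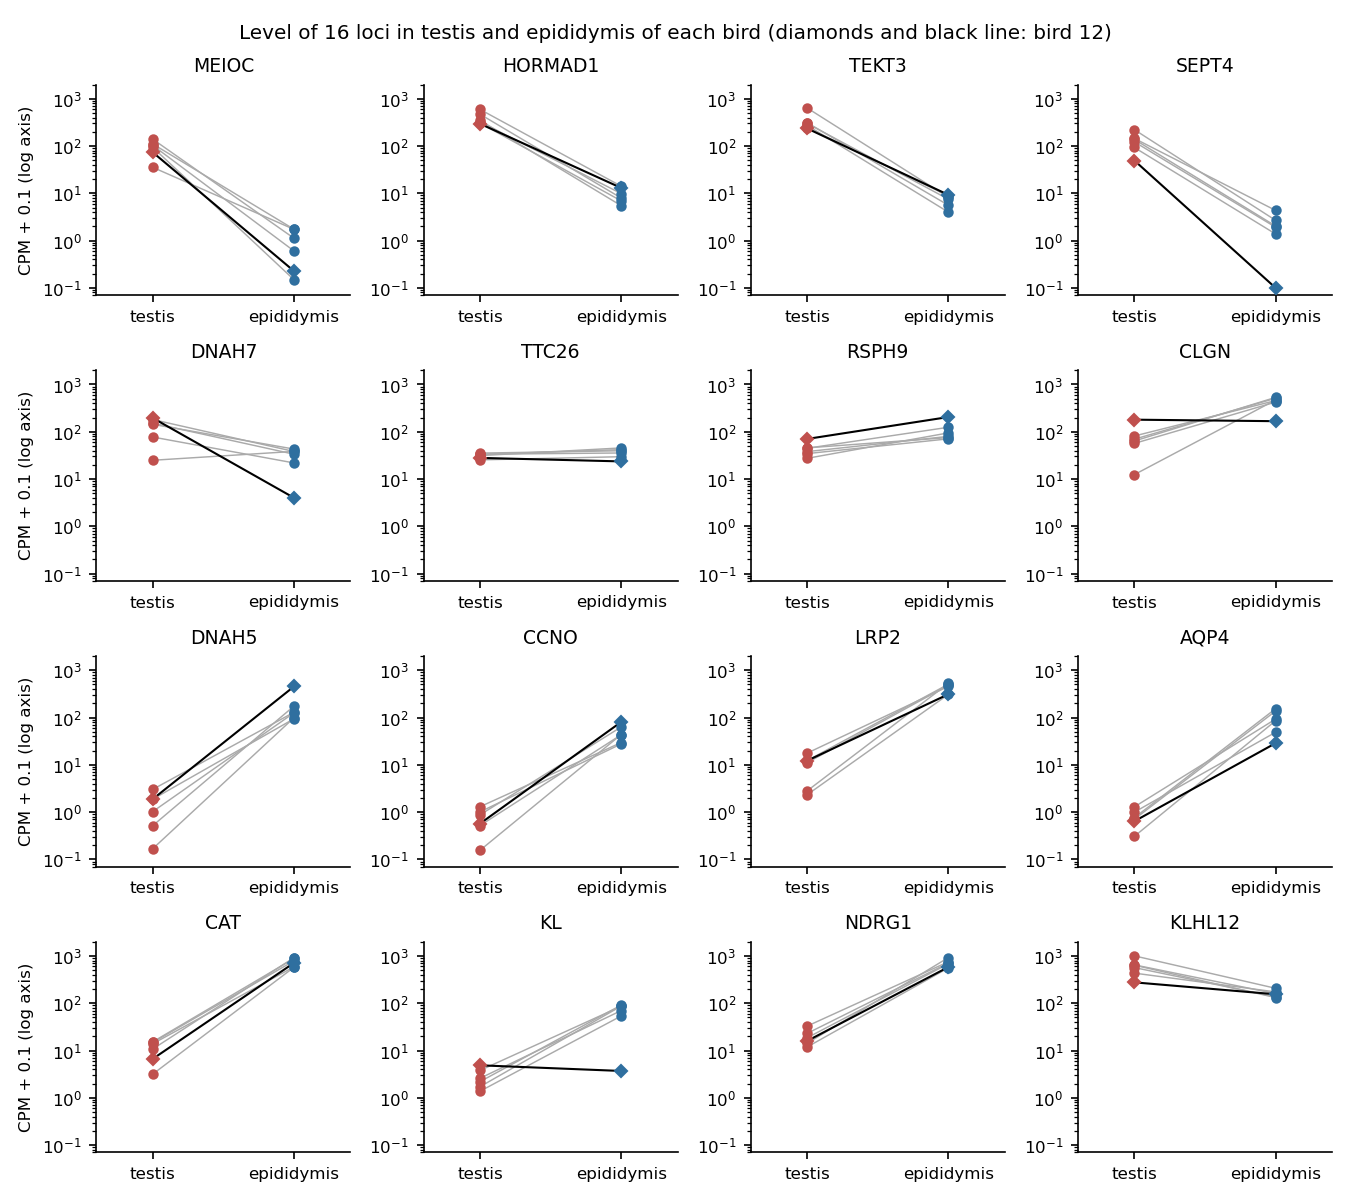
Level (CPM plus 0.1, log axis) of 16 loci in the testis (red) and the epididymis (blue) of each bird, with a line per bird; bird 12 has diamonds and a black line. MEIOC, HORMAD1, TEKT3 and SEPT4 fall in all 6 birds, and DNAH5, CCNO, LRP2, AQP4 and CAT rise in all 6. Bird 12 runs against the others for CLGN, KL and TTC26, whereas for DNAH7 it falls most steeply and bird 11 alone rises.

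Of 15 listed genes of an absorptive epithelium, 7 had a symbol, all 7 rose, with and without bird 12's epididymis and with the bird as a block, and their median log2 fold change was 4.43. Of all tested loci 12.9% rose, and of the 83 with a symbol, which come from lists of changed genes, 46 rose. On annotated transcripts alone, 2 of the 7 could be tested and 1 rose. LRP2, or megalin, the endocytic receptor of absorptive epithelia such as the kidney tubule, had 2.23, 11.6 and 17.6 CPM in testes and 308, 468 and 527 CPM in epididymides. The log2 fold change was 5.49 ± 0.54 (adjusted p = 4.09e-06), in 6 of 6 birds. HNF4A, a transcription factor of liver, gut and kidney epithelia, rose by 5.45 and CDHR2, a cadherin of the brush border, by 4.85. The protease LGMN, the phospholipase PLA2G12B, TMEM27, which is also known as collectrin, and the transcription factor CREB3L3 rose by 3.26 to 4.43 on the log2 scale.

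Of 16 listed channels and transporters, 6 had a symbol, with 5 rising and 1 undecided (12.9% of all tested loci and 46 of the 83 with a symbol rose). Counted on annotated transcripts only, 2 could be tested and neither was called. AQP4, a water channel, had 0.206, 0.632 and 1.19 CPM in testes and 28.5, 88.8 and 153 CPM in epididymides, with bird 12 the lowest of the latter. The log2 fold change was 7.05 ± 0.58 (adjusted p = 1.02e-06). AQP9, a channel for water and small solutes, rose from 0.138 to 1.51 CPM to 22.5 to 38.3 CPM (5.31 ± 0.52). The cystine transporter SLC7A11 rose by 5.05 and the ATP-gated channel P2RX2 by 2.66. The peptide transporter SLC15A1 rose by 1.98, which was not called (adjusted p = 0.0312) with the bird as a block. SLC34A2, a phosphate transporter, had 5.42, 10.5 and 11.7 CPM in testes and 5.52, 14.6 and 52.0 CPM in epididymides, and its log2 fold change of 1.19 (interval 0.12 to 2.27) was undecided.

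All 8 metabolic and redox genes with a symbol (of 13 listed) rose, by 1.65 to 6.12 on the log2 scale, against 12.9% of all tested loci and 46 of the 83 with a symbol. With annotated transcripts only, 6 of the 8 could be tested and 5 rose. CAT, the catalase that breaks down hydrogen peroxide, had 3.08, 12.3 and 15.2 CPM in testes and 578, 753 and 923.9 CPM in epididymides. The birds were close together in the epididymis, and the log2 fold change was 6.12 ± 0.44 (adjusted p = 3.99e-07), and 6.14 without bird 12's epididymis. KMO, an enzyme of tryptophan breakdown, rose by 5.17, although the epididymis of bird 12 had 8.93 CPM against 54.2 to 96.0 in the others. ASS1, of arginine synthesis, rose by 3.94, OSGIN1 by 2.98, the thiolase ACAA2 by 2.53 and the mitochondrial flavoprotein AIFM1 by 1.65. For ACAA2 bird 12 was the exception, with a lower level in its epididymis than in its testis. MT4, a metallothionein, and RDH10, a retinol dehydrogenase, rose by 4.71 and 4.36, and by 3.67 and 3.74 without bird 12's epididymis, where they stood at 931 and 163 CPM against at most 216 and 43.4 CPM in the others.

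The 4 coagulation genes with a symbol (of 6 listed) rose, in all 6 birds each, against 12.9% of all tested loci and 46 of the 83 with a symbol. PROC, the precursor of activated protein C, rose from 0.433 to 2.95 CPM to 77.3 to 130 CPM, a log2 fold change of 5.98 ± 0.47 (adjusted p = 8.29e-07). F5, coagulation factor V, rose by 4.71, the fibrinogen chain FGB by 4.37 and F3, the tissue factor, by 3.25. None of the 4 groups of epididymides overlapped the testes, which also held for 41 of the 46 named loci that rose. Over all tested loci, 11.7% lay wholly higher in the epididymis. Counted on annotated transcripts only, PROC alone of the 4 was called, F5 was at 0.80 (adjusted p = 0.635), F3 at 3.89 (adjusted p = 0.0181) and FGB below 0 as given above.

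Adhesion, junction and cytoskeleton genes rose in 11 of 12 cases (of 21 listed), with a median of 3.06, against 12.9% of all tested loci and 46 of the 83 with a symbol. Counted on annotated transcripts only, 8 of the 12 could be tested and 4 rose. LAD1, an anchoring protein of basement membranes, rose by 5.14, ARHGEF16 by 4.03 and CRYAB, a small heat shock protein, by 3.74. RHOA, a regulator of the actin cytoskeleton, went from 214 ± 74.4 to 839 ± 192 CPM and CSRP1 from 302 ± 213 to 1397 ± 550 CPM (SD, n = 6 each), by 1.97 and 2.21 on the log2 scale. The keratin KRT19 was undecided at 9.22 to 47.3 CPM in epididymides and 12.3 to 24.9 CPM in testes.

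Of 17 listed signalling and protein turnover genes, 13 had a symbol, 6 of which fell and 7 rose. Of all tested loci 23.0% fell and 12.9% rose, and of the 83 with a symbol 24 fell and 46 rose. Counted on annotated transcripts only, 10 of the 13 could be tested, of which 2 fell and none rose. Among those that fell were RNF2 (-2.78), UBE2R2 (-2.29), ZNRF1 (-2.18), KLHL12 (-1.89) and the deubiquitinase USP4 (-1.19), which belong to the ubiquitin system. KLHL12, an adaptor of a ubiquitin ligase, was the most counted of these 5 at 277, 604 and 1006 CPM in testes and 132, 157 and 207 CPM in epididymides, and bird 11 had the highest level in both tissues. The calls for RNF2 and USP4 were lost (adjusted p = 0.0505 and 0.0213) with the bird as a block, and that of USP4 was lost without the testis of bird 11 (log2 fold change of -0.89).

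The 7 that rose included receptors and genes of differentiated epithelia. NDRG1, a gene of differentiating epithelia, went from 11.8 to 32.8 CPM to 559 to 925 CPM (5.18 ± 0.33, adjusted p = 2.12e-07). KL, or klotho, a coreceptor for fibroblast growth factors, rose from 1.28 to 4.77 CPM in testes to 53.7 to 91.4 CPM in 5 epididymides, whereas the testis of bird 12, at 4.77 CPM, lay above its epididymis. The log2 fold change was 4.62 ± 0.65 with this library and 4.86 without it. FGFR1, a receptor for that family, rose by 1.52. ITM2C, the autophagy gene MAP1LC3A and IVNS1ABP rose by 1.74 to 2.34.

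Leaving out bird 12's epididymis raised the number of tested loci to 31567 and of called loci to 14099 (44.7%), with 9019 lower (28.6%) and 5080 higher (16.1%) in the epididymis and 1839 held (5.83%). Of the 10237 loci called with it, 10091 were called in the same direction without it, none in the opposite direction, and 146 were not called. Among loci tested both ways, 2360 were called without it only, 1094 lower and 1266 higher in the epididymis, and 1648 more calls came from loci not tested with it. Without the testis of bird 11 in addition, 13395 loci were called, 8050 lower and 5345 higher, and 2860 were held.

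Calls of 10 named loci depended on single libraries. The call of USP4 (adjusted p up to 0.0237) was lost without any 1 of 9 libraries, all but the testes of birds 2 and 12 and the epididymis of bird 12. That of RNF2 (up to 0.0190) was lost without any 1 of 8, the epididymides of birds 2, 11, 14, 15 and 16 and the testes of birds 12, 14 and 16. The rise of RSPH9 (up to 0.0279) was lost without the testis of bird 2, 11, 14, 15 or 16. DNAH7 (up to 0.0127) was lost without the epididymis of bird 2 or the testis of bird 12, 14 or 16, CCDC40 (up to 0.0115) without either tissue of bird 16 or the testis of bird 12, and NDC80 (0.0104) without the testis of bird 12. All 6 kept their direction. TOP3B was called without the testis of bird 12 too, beside the gains already given for TOP3B, SLC26A8, DRC7 and CFAP69.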

How the data were processed

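RNA was sequenced from the testis and the epididymis of 6 birds, 12 libraries. According to the methods, the authors used Trimmomatic for trimming, STAR for mapping against the turkey genome, and StringTie for one merged set of transcripts. They deposited whole-number counts per gene and per transcript without normalization. The tool that made the counts is not given in the sources used here. Levels and tests used the gene counts as deposited, after the edgeR filter on low counts and TMM scaling over the 12 libraries.

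The test was edgeR 4.0.16 (quasi-likelihood, robust, R 4.3.3) with Benjamini-Hochberg adjustment over all 28489 loci tested, and an adjusted p below 0.01 together with a log2 fold change beyond 1 made a call. The standard error is the fold change over the square root of F. Fold changes are log2, epididymis minus testis, and lower bounds use 3 counts per library at the library with the highest such level. P-values of single measures came from exact permutations with scipy 1.17.1, which ignore the pairing. Counting error apart, n = 6 birds per tissue sets the precision.

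The labels number tissues by bird, which was taken as the pairing. Deviations of the same bird's tissues from the group means correlated at -0.085 to 0.091 (mean 0.0089 over 28489 loci). Fits with and without the bird as a block were made. Alternatives were DESeq2 1.42.0, limma 3.58.1, other scalings, no filter, all 18 libraries, each library left out, other thresholds, and annotated transcripts only.

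Named loci were all 83 with a symbol in the supplementary tables, and, among called loci with 1 direction in all 6 birds, the 5 most counted and the 3 with the largest fold change (10 CPM or more) per direction, plus the 5 most counted held loci. Values of 3 of the 83 are not reported here, although the counts include them. Members and lists were chosen with earlier results of these data known. The steps were tested on simulated data.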

Additional observations from a re-analysis of the deposited data

Results flagged for a closer look

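Values were set apart where the gap to the nearest of the other 5 libraries of the tissue, over the range of the 6, passed Dixon's 95% limit for 6 values. Of 206 groups of 6 examined, 35 held such a value. The limit is set for about 5% of independent groups of normally distributed values. These groups share the same 12 libraries and untransformed values were used, so the count of 35 is no test against that share. The epididymis of bird 12 and the testis of bird 11 had 15 each, the testis of bird 12 had 4 and the testis of bird 2 had 1. All levels are in CPM.

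The epididymis of bird 12 lay below the other 5 for IVNS1ABP (96.5, others 222.5 to 255.4), RNF2 (0, others 3.81 to 5.70) and DNAAF5 (8.96, others 22.1 to 28.0). It was also below them for SPTBN1 (82.6, others 392.4 to 560.9), NDC80 (1.58, others 9.25 to 12.1), CLGN (167.2, others 424.0 to 533.0) and ACAA2 (97.0, others 401.0 to 539.2). It lay above them for TMEM27 (140.6, others 69.2 to 92.7), MT4 (930.6, others 63.6 to 215.9), DNAH5 (454.3, others 94.1 to 174.8) and RDH10 (162.8, others 31.2 to 43.4). The same held for MSTRG.50983 (501000, others 53060 to 62170), MSTRG.13365 (118.4, others 6.25 to 46.6) and MSTRG.33089 (5826, others 1412 to 2239). Its share of counts in the 100 most counted loci, 60.5%, lay above 31.6% to 40.2% in the others.

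The testis of bird 11 lay above the other 5 for the axoneme genes TEKT3 (636.2, others 234.8 to 310.7), TEKT2 (569.3, others 162.8 to 235.9) and ZMYND10 (383.3, others 113.4 to 194.1). It was also above them for PCSK4 (154.1, others 43.5 to 58.5), USP4 (472.6, others 141.3 to 232.3), CDHR2 (21.9, others 3.68 to 10.2), P2RX2 (8.64, others 0.909 to 3.66), CRYAB (9.37, others 2.11 to 3.73) and KRT19 (24.9, others 12.3 to 15.7). The unnamed loci set apart in the same way were MSTRG.39609 (11970, others 3461 to 4480), MSTRG.25391 (4839, others 1468 to 2218), MSTRG.16678 (4784, others 906.1 to 1582) and MSTRG.39048 (43.2, others 1.304 to 9.21). It lay below the others for SLC15A1 (2.81, others 8.52 to 11.5) and RHOA (70.3, others 205.1 to 274.6).

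The testis of bird 12 lay above the others for IQUB (186.8, others 17.2 to 68.2), SLC26A8 (59.7, others 20.9 to 28.5), FGB (6.84, others 1.10 to 2.52) and ARMC4 (140.2, others 8.93 to 56.1). The testis of bird 2 lay above them for ASS1 (23.8, others 9.20 to 14.4).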

How the results depend on the processing

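With the bird as a replicate block, called loci fell from 10237 to 6262 (3998 lower and 2264 higher in the epididymis) and held loci from 1001 to 620. The block without bird 12 gave 9543 called and 1598 held loci. Leaving out 1 library at a time gave 9217 to 14099 called loci, 5952 to 9019 lower and 3124 to 5080 higher in the epididymis, and 676 to 1839 held, the highest counts being those without the epididymis of bird 12. Without the testis of bird 11, 1548 were held. Without both (chosen after seeing the data), 13395 were called and 2860 held. No filter gave 14278 called loci, the largest number, of which 10573 were lower in the epididymis. DESeq2 called 13374, a newer quasi-likelihood setting of edgeR (also added later) 13774, and limits of 1.5-fold left 33 held. The other alternatives kept the number of called loci between 9625 and 13899. With library size alone the median of all loci went from -0.30 to -0.56 and the share of calls lower in the epididymis from 63.99% to 72.0%. DESeq2, where the test differs as well as the scaling, gave -0.67 and 72.0%.

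The difference in loci with counts kept its direction and p under 0.05 throughout (-13221 to -9798 when leaving out 1 library, -10250 with 10 counts as the minimum). The difference of 8.80 percentage points for the 100 most counted loci passed 0.05 for the 10 most counted loci (9.05, exact permutation p = 0.0498) and ranged from 4.62 to 10.5 over single libraries left out, with p under 0.05 without testis 2, epididymis 11 or epididymis 14.

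The named loci that changed sign were near 0 or were counted on annotated transcripts only. IQUB was -0.11 with DESeq2, -0.079 with library size alone and, over the libraries left out, -0.078 (without the testis of bird 11) to 0.77. TTC26 was -0.14 with DESeq2, -0.038 with library size alone and, on annotated transcripts, -0.67. On annotated transcripts SLC15A1 was -1.52, CORO1C -0.71, RFX2 -3.73 and FGB -2.78. Of the held loci, MSTRG.51387 was -0.11 with DESeq2 and -0.0059 with library size. MSTRG.51382 was -0.28 with DESeq2, -0.15 with library size (-0.149) or the upper quartile (-0.154), -0.022 without the filter, -0.093 with the block without bird 12, and -0.13 to 0.22 over the libraries left out. MSTRG.33089 was -0.13 with DESeq2, -0.42 with library size, -0.16 with limma, -0.17 with the block, -0.57 with the block without bird 12, and -0.48 to 0.16 over the libraries left out. MSTRG.22947 was -0.38 with DESeq2, -0.18 with library size, -0.29 with the upper quartile, -0.10 without the filter, -0.064 with limma, -0.063 with the block, -0.040 with all 18 libraries, -0.16 with the block without bird 12, and -0.21 to 0.23 over the libraries left out. For each, the cause was not tested.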

Other observations

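The testes of birds 11 and 12 lay at opposite ends for many named loci, a pattern noticed after the values were seen. The testis of bird 11 was the lowest of the 6 and that of bird 12 the highest for 20 of the 83 loci with a symbol (24.1%), among them the axoneme and cilium genes LRRC6, ARMC4, DNAH7, CFAP69, IQUB, CCDC40, MAK and PLK4, the kinetochore gene NDC80 and the chaperone gene CLGN. The reverse order held for 17 loci (20.5%), among them the sperm and flagellum genes TEKT3, SEPT4 and PCSK4, the meiotic gene HORMAD1 and the kinesin gene KIF18B. Over the 9789 tested loci with a mean of 10 CPM or more in the testis, these 2 orders were found for 19.1% and 25.7%. The axoneme genes TEKT3 and DNAH7 were thus in opposite orders in the testes of these 2 birds. With 1 library per testis, the part of the library, the tissue piece and the bird was not tested.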
